A study of Homo sapiens with 34 samples.

Results

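A set of 7 human transcription factors that set or mark the identity of prostate epithelium were followed across every culture of a study of prostate cell lines: FOXA1, GATA2, GATA3, GRHL2, SOX9, KLF5 and ONECUT2. They were chosen by symbol, and all 7 were found among the 26336 genes of the count table. The study grew 4 established lines on plastic or on an ACP coating (abbreviation as in the labels, which also speak of calcium surfaces) and sequenced poly(A) RNA, giving 34 libraries in 17 groups. RWPE is a non-tumorigenic prostate epithelial line, LNCaP came from a lymph node metastasis, and VCaP and MDAPCa2a came from bone metastases. Each is a single established line, so a difference between lines is not a difference between disease stages.

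RWPE had 3 groups: plastic with control medium (2 libraries), ACP with control medium (2) and ACP with androgen (3). LNCaP and VCaP each had 5 groups: plastic with control medium, plastic with charcoal-stripped serum, ACP with control medium, ACP with stripped serum, and ACP with stripped serum plus androgen. Each of these held 2 libraries except VCaP on plastic with stripped serum, which held 1. MDAPCa2a had 4 groups of 2, without ACP in control medium. The androgen is dihydrotestosterone in the sample titles and testosterone in the condition labels, at a labelled 100 mM. All cells except the plastic control cultures were collected on day 4, and the plastic control cultures are labelled as continuous culture. RWPE control medium was serum-free keratinocyte medium with growth factors, the other lines grew in serum, and the protocol's androgen medium contains stripped serum, so serum and androgen cannot be told apart in RWPE. Pairs of a cancer line with RWPE on plastic control therefore also compare a serum medium with a serum-free one. For MDAPCa2a the plastic carried a protein coat that the ACP surface lacked. In pairs with MDAPCa2a on plastic, line and coat cannot be told apart. The labels do not say whether the libraries of a group came from separate cultures, so the p-values measure only the spread between these libraries.

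Prostate ducts are lined by secretory luminal cells that lie on a layer of basal cells, and a small network of DNA-binding proteins separates the identities. FOXA1 (a forkhead factor) and GATA2 open chromatin for steroid receptors at luminal genes, GATA3 guides luminal differentiation, and GRHL2 (a grainyhead factor) keeps up epithelial junction genes. SOX9 acts in prostate budding and in progenitor cells, KLF5 is a Kruppel-like factor of basal and proliferating epithelium, and ONECUT2 is known from aggressive prostate cancer that loses luminal features or gains neuroendocrine ones.

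Reference promoter windows of FOXA1, GATA2 and GATA3 are shown because the first 2 were higher in the 3 cancer lines than in RWPE and GATA3 was lower. Each is 300 bases long, from upstream of an annotated start to a little past it, written 5′ to 3′ on the gene's strand, from RefSeq on GRCh38.p14, and 5 of the 7 factors matched the promoter table. The FOXA1 window is chr14:37595200-37595499 on the minus strand, those of GATA2 are chr3:128488481-128488780 and chr3:128493152-128493451 on the minus strand, and that of GATA3 is chr10:8045083-8045382 on the plus strand. Capitals mark matches on either strand to the forkhead motif TGTTTNC or the GATA motif AGATAA.
FOXA1: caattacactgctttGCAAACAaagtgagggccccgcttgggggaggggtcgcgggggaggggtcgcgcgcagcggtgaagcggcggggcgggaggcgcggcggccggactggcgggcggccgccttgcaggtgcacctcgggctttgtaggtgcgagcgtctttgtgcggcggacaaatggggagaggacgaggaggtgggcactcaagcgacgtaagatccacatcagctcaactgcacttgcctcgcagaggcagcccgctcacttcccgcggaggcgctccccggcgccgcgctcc
GATA2 window 1: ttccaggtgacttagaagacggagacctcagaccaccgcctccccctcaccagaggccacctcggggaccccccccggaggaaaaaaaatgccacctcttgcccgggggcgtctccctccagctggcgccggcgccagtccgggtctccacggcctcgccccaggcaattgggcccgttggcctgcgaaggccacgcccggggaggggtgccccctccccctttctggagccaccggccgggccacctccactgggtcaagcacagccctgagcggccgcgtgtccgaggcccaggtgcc
GATA2 window 2: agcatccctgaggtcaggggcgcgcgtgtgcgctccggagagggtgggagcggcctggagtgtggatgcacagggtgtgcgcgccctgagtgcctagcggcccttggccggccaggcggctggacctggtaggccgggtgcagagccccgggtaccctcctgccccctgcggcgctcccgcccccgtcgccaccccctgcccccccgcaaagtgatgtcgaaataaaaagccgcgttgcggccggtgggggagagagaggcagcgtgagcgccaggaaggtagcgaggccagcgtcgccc
GATA3 window 1: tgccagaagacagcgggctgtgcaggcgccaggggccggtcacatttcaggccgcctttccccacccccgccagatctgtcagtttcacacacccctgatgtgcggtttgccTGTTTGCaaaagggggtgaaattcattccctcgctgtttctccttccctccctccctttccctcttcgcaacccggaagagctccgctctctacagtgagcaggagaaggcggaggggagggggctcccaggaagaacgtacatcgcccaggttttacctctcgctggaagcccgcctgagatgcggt
The FOXA1 window held 1 forkhead match, 235 bases before the start and on the opposite strand. This GATA3 window, 1 of 6, held a forkhead match on its own strand, 138 bases before the start. Of the 12 windows of the 5 matched factors, only these FOXA1 and GATA3 windows held the forkhead motif. Neither GATA2 window held either motif. The forkhead motif was present in 18.0% of all 35116 windows of that length and the GATA motif in 10.3%, and the GATA motif was in none of the 12 windows of the 5 matched factors. The matches shown overlapped no other motif searched, and a match describes the letters and not a bound site.

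Library totals were 34.9 M to 44.8 M in the 8 plastic control libraries and 15.4 M to 37.0 M in the other 26. Levels are given as CPM, the read count scaled to library size, with TMM factors over all libraries. The line labels were checked against defining markers. TP63 and KRT5, the p63 factor and the keratin of basal cells, averaged 192 and 7486 CPM in RWPE on plastic control, against at most 0.244 and 9.04 in the other lines. KRT8, a keratin of luminal cells, was at 429 to 719 CPM in all 4 lines, so RWPE carried basal and luminal keratins together. The prostate-specific antigen gene KLK3 averaged 2838 CPM in LNCaP and 5453 in MDAPCa2a, 70.0 in VCaP and 13.4 in RWPE. Lymphoid markers summed to 4.88 to 17.2 CPM in the plastic control libraries and to at most 4.60 in the others. CD74 made up most of that sum, and the T- and B-cell genes CD3E and MS4A1 averaged at most 0.0138 CPM in each plastic control group. Liver markers summed to 5.71 to 16.2 CPM in the plastic control libraries of RWPE, LNCaP and MDAPCa2a and to at most 1.51 in their others, and all 5 were called lower on ACP in control medium in RWPE and in LNCaP. In VCaP they summed to 15.9 to 322 CPM over all groups. The plastic control libraries thus differed in label and ran deeper, with overlapping ranges. Their lymphoid sums were higher in all lines and their liver sums in all but VCaP. For comparisons with them these differences cannot be told apart from surface or serum.

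**Figure D1:**
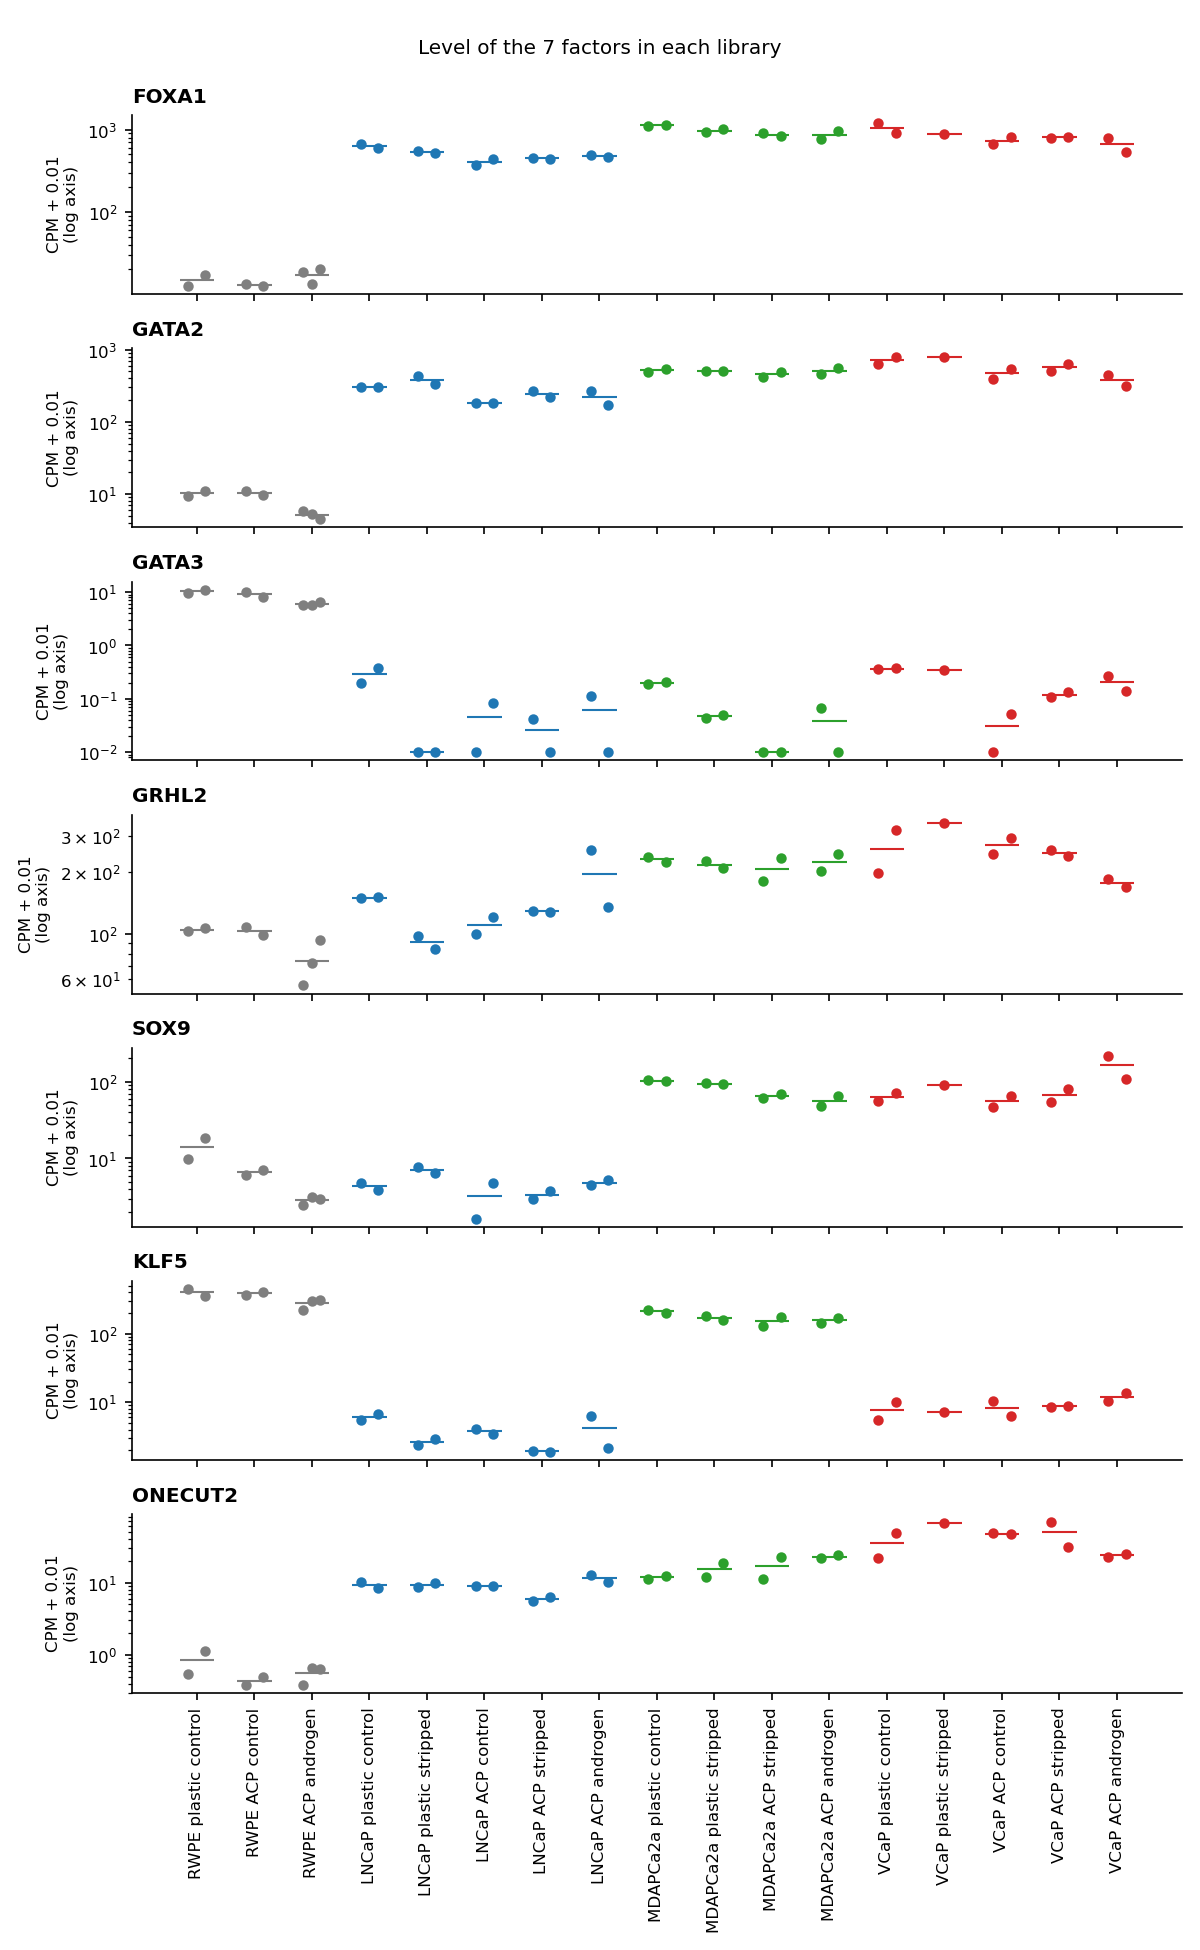
CPM plus 0.01 on a log axis for each factor (panels) in every library (points), with a line at each group's mean, in 17 groups coloured by cell line. FOXA1 and GATA2 sat far lower in the 7 RWPE libraries than in all others, GATA3 did the reverse, and KLF5 was high in RWPE and MDAPCa2a.

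FOXA1 and GATA2 were the most abundant factors of the cancer lines and scarce in RWPE. FOXA1 ran from 12.6 to 20.1 CPM in the 7 RWPE libraries (median 13.5), from 367 to 673 in the 10 LNCaP libraries (median 475), from 536 to 1188 in the 9 VCaP libraries (median 809) and from 768 to 1139.7 in the 8 MDAPCa2a libraries (median 944). No cancer-line library came near RWPE, while VCaP overlapped both other cancer lines. GATA2 ran from 4.47 to 11.1 CPM in RWPE (median 9.47), from 173 to 431 in LNCaP (median 265), from 316 to 806 in VCaP (median 549) and from 426 to 555 in MDAPCa2a (median 499). MDAPCa2a was the tightest line for GATA2, with a highest value 1.30 times its lowest, against 2.48 to 2.55 times in the other lines.

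GATA3 and KLF5 were higher in every RWPE library than in any library of the cancer lines. GATA3 ran from 5.64 to 11.1 CPM in RWPE (median 8.18), and no library of another line exceeded 0.375. Its raw counts were 91 to 439 per RWPE library. On plastic control they were 9 and 17 in LNCaP, 12 and 15 in VCaP and 6 and 7 in MDAPCa2a, which put these libraries at up to 3.64% of the RWPE mean on plastic control. LNCaP on plastic with stripped serum had 0 reads in both libraries, at least 202-fold lower than RWPE on plastic control at a floor of 3 counts over the group (lower limit of the exact 95% interval 164-fold). MDAPCa2a on ACP with stripped serum also had 0, at least 102-fold lower than RWPE on ACP in control medium at the same floor (lower limit 82.9-fold). In LNCaP on ACP with androgen, 3 reads in all against 332 in the matching RWPE group gave a ratio of 120 (exact 95% interval 40.5 to 582, counting error only). Group means on plastic control were 0.356 CPM in VCaP, 0.283 in LNCaP and 0.186 in MDAPCa2a, each the highest of its own line. VCaP on plastic with stripped serum came close to its plastic control, at 0.336 CPM from 7 reads in 1 library. The lymphoid markers were also highest in the plastic control libraries, but summed to 0.769 CPM in that stripped-serum library. Their part in the GATA3 reads was not tested.

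KLF5 ran from 223 to 445 CPM in RWPE (median 357) and from 128 to 219 in MDAPCa2a (median 173). It was only 1.89 to 6.80 CPM in LNCaP (median 3.17) and 5.51 to 13.5 in VCaP (median 8.93). The 2 bone-metastatic lines therefore lay far apart for this factor, and no library of MDAPCa2a overlapped VCaP.

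GRHL2 was the most even of the 7. It ran from 56.0 to 108 CPM in RWPE (median 98.8), from 84.7 to 258 in LNCaP (median 129), from 168 to 348 in VCaP (median 245) and from 181 to 244 in MDAPCa2a (median 226). The lines overlapped in every pair except RWPE with VCaP and RWPE with MDAPCa2a.

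SOX9 split the lines another way. It ran from 46.7 to 215 CPM in VCaP (median 70.7) and from 48.3 to 103 in MDAPCa2a (median 80.9), against 1.65 to 7.70 in LNCaP (median 4.62) and 2.44 to 18.4 in RWPE (median 6.16). Every library of the bone-metastatic lines lay above every library of the other lines.

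ONECUT2 was highest in VCaP, at 22.1 to 68.3 CPM (median 46.3), followed by MDAPCa2a at 11.1 to 24.0 (median 15.4) and LNCaP at 5.47 to 12.5 (median 8.94). RWPE had 0.375 to 1.14 CPM (median 0.531), from 6 to 45 reads per library. Neighbouring cancer lines overlapped in this order, while RWPE did not overlap any of them.

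Per kilobase of exon, which allows genes to be compared with each other, the order on plastic control differed between lines. In RWPE the highest level was that of KLF5, at 103 ± 15.9 CPM per kb (SD, n = 2), followed by GRHL2 at 17.3 ± 0.441. FOXA1, SOX9, GATA3 and GATA2 lay between 2.30 and 3.71 CPM per kb and ONECUT2 at 0.0514. In LNCaP, FOXA1 came first at 160 ± 13.1 CPM per kb, then GATA2 at 68.6 ± 0.770 and GRHL2 at 24.8 ± 0.142, and the other 4 were at or below 1.57. VCaP had FOXA1 at 264 ± 49.1, GATA2 at 160 ± 23.4 and GRHL2 at 42.7 ± 14.4 CPM per kb. MDAPCa2a had FOXA1 at 284 ± 3.82 and GATA2 at 116 ± 6.66, and there KLF5, at 53.9 ± 3.33 CPM per kb, stood above GRHL2 at 38.1 ± 1.42. FOXA1 therefore led in all 3 cancer lines and KLF5 in RWPE.

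**Figure D2:**
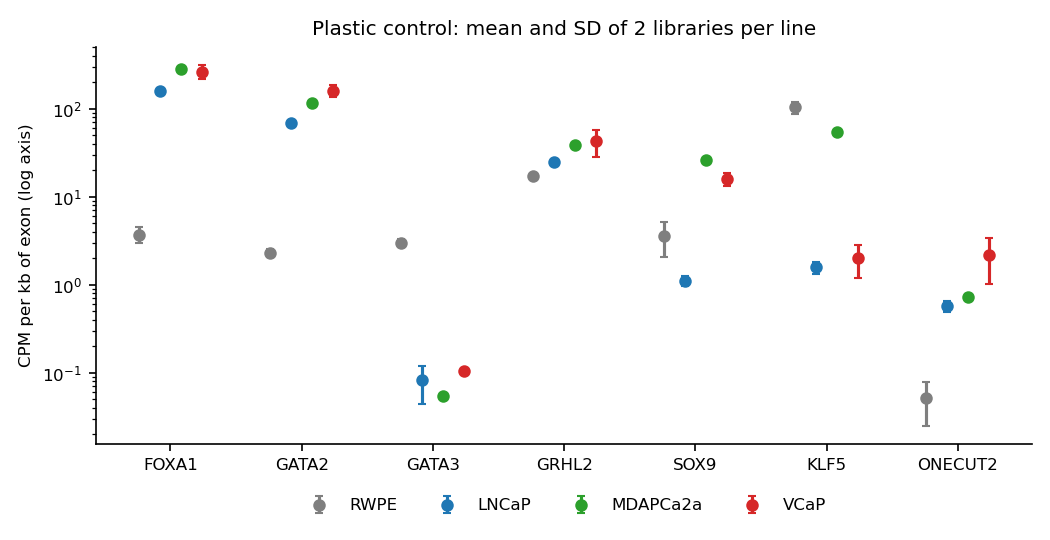
Mean and SD (error bars, n = 2 libraries) of CPM per kb of exon on a log axis for the 7 factors in the 4 lines on plastic control. FOXA1 leads in the cancer lines and KLF5 in RWPE, where FOXA1 is at 3.71 CPM per kb.

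On plastic control, lines were compared in pairs with edgeR's quasi-likelihood test on all 34 libraries, calling a gene at a Benjamini-Hochberg adjusted p below 0.05. Against RWPE, LNCaP had FOXA1 43.1-fold, GATA2 29.8-fold and ONECUT2 (log2 difference 3.46 ± 0.42) higher, and KLF5 65.7-fold, SOX9 3.26-fold and GATA3 lower. That is 3 factors higher and 3 lower of 7, where 57.4% of all genes were called (29.5% higher, 27.9% lower), and GRHL2 was not called (log2 difference 0.52 ± 0.25 SE, adjusted p = 0.0746). MDAPCa2a against RWPE had 5 higher and 2 lower (background 56.7% of all genes, 28.3% higher and 28.4% lower), with FOXA1 76.4-fold, GATA2 50.5-fold, ONECUT2 14.0-fold, SOX9 7.25-fold and GRHL2 2.21-fold higher and KLF5 1.91-fold lower. VCaP against RWPE also had 5 higher and 2 lower (background 62.4%, 32.1% higher and 30.3% lower), with FOXA1 71.1-fold, GATA2 69.5-fold, ONECUT2 42.4-fold, SOX9 4.43-fold and GRHL2 2.47-fold higher and KLF5 51.7-fold lower. GATA3 was the other factor lower than RWPE in each of the 3 lines, and its counts are given above because the size of a fitted fold change near 0 reads depends on the fit. SOX9 was thus lower than RWPE in LNCaP and higher in the bone-metastatic lines. RWPE grew here without serum, so line and medium cannot be told apart in these pairs.

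Among the cancer lines on plastic control, MDAPCa2a had 5 factors higher than LNCaP and none lower (background 40.2%, 19.3% higher and 21% lower). KLF5 was 34.4-fold and SOX9 23.7-fold higher, and FOXA1, GATA2 and GRHL2 were 1.54-fold to 1.77-fold higher. VCaP also had 5 higher than LNCaP and none lower (background 52.6%, 27% higher and 25.7% lower), with SOX9 14.5-fold, ONECUT2 3.87-fold and GATA2 2.33-fold higher, and GRHL2 and FOXA1 1.73-fold and 1.65-fold higher. Between VCaP and MDAPCa2a, 2 of 7 were called where 52.4% of all genes were (27.3% higher, 25.1% lower): ONECUT2 was 3.02-fold higher in VCaP and KLF5 27.1-fold lower. FOXA1 was not called between these lines, with a log2 difference of -0.10 ± 0.20 (adjusted p = 0.698). Over the 6 pairs, 32 of 42 tests were called, 76.2% against 53.6% of all genes.

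Of these 32 calls, 6 were lost in at least 1 alternative. GRHL2 in MDAPCa2a against LNCaP was lost without any of the 4 libraries involved (adjusted p 0.104 to 0.157). GRHL2 in VCaP against LNCaP was lost without VCaP library 2 (log2 difference 0.39, adjusted p = 0.259) and without LNCaP library 1 (0.78, adjusted p = 0.0532). FOXA1 in that pair was lost without VCaP library 1 (0.52, adjusted p = 0.0803) or LNCaP library 2 (0.64, adjusted p = 0.0533). ONECUT2 in VCaP against MDAPCa2a was lost without VCaP library 2 (0.90, adjusted p = 0.0545), and against LNCaP it was 1.26 in place of 1.95 without that library and stayed called. Against RWPE, ONECUT2 stayed called, and without RWPE library 2 its log2 difference was 4.11 in place of 3.46 in LNCaP, 4.46 in place of 3.81 in MDAPCa2a and 6.06 in place of 5.41 in VCaP. Without VCaP library 2 it was 4.71 in VCaP. KLF5 in MDAPCa2a against RWPE was lost without RWPE library 1 (-0.80, adjusted p = 0.0789) or MDAPCa2a library 2 (-0.87, adjusted p = 0.0726). GATA2 in MDAPCa2a against LNCaP was lost only with the replicate number as a block.

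The same pairs on ACP with androgen shared no library with those above. LNCaP against RWPE had 4 factors higher and 2 lower (background 66.9%, 32.2% higher and 34.8% lower). MDAPCa2a and VCaP each had 5 higher and 2 lower (background 64%, 29.9% higher and 34.2% lower, and 67.4%, 32.8% higher and 34.6% lower). FOXA1 was 27.4-fold, 49.8-fold and 38.2-fold higher than RWPE in LNCaP, MDAPCa2a and VCaP, and GATA2 42.4-fold, 98.9-fold and 74.6-fold. KLF5 was 64.9-fold lower than RWPE in LNCaP and 23.2-fold lower in VCaP, but 1.77-fold lower in MDAPCa2a. SOX9, lower than RWPE in LNCaP on plastic, had a log2 difference of 0.76 ± 0.35 here (adjusted p = 0.0545). It was called higher by DESeq2 (adjusted p = 0.0384), without a count filter, without the plastic control libraries, and without RWPE library 2 or 3. GRHL2 was called in LNCaP against RWPE here, 2.66-fold higher, and its log2 difference was 1.41, and 0.87 without LNCaP library 1.

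Among the cancer lines on ACP with androgen, MDAPCa2a and VCaP each had 5 factors higher than LNCaP and none lower (background 45.3%, 21.3% higher and 24% lower, and 56%, 28.5% higher and 27.5% lower). SOX9 was 11.7-fold and 33.5-fold higher, and KLF5 was 36.8-fold higher in MDAPCa2a and 2.80-fold higher in VCaP. VCaP against MDAPCa2a again had 2 calls (background 51.4%, 26.8% higher and 24.5% lower): SOX9 2.87-fold higher and KLF5 13.1-fold lower in VCaP, whereas ONECUT2 was not called here (log2 difference 0.06 ± 0.35, adjusted p = 0.917). In total 32 of 42 tests were called, 76.2% against 58.5% of all genes. Of the 42 combinations of factor and pair, 28 were called in both conditions, all 28 in the same direction, 4 on plastic control only and 4 on ACP with androgen only. The share of all genes called in both conditions was not counted, so these numbers are a description and not a trait of the factors.

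Of the 32 calls of the ACP set, 5 were lost without a library. FOXA1 in VCaP against LNCaP was lost without VCaP library 1 (log2 difference 0.17, adjusted p = 0.570) or either LNCaP library (0.44 and 0.52). GATA2 in that pair was lost without VCaP library 1 (0.53, adjusted p = 0.0770) or LNCaP library 2 (0.54, adjusted p = 0.0780). ONECUT2 in that pair was lost without VCaP library 2 (0.96) or LNCaP library 2 (0.93), and in MDAPCa2a against LNCaP without any of the 4 libraries (0.87 to 1.15). KLF5 in MDAPCa2a against RWPE was lost without RWPE library 2 or 3 or MDAPCa2a library 1 (-0.69 to -0.62). Other calls were kept but moved with a single library. KLF5 in LNCaP went from 64.9-fold lower than RWPE (log2 difference -6.02) to -7.00 on the log2 scale without LNCaP library 1, and KLF5 in MDAPCa2a against LNCaP from 5.20 to 6.18. GATA3 in LNCaP and MDAPCa2a against RWPE, which rests on 3 reads and 1 read, also moved. Further such values were KLF5 in VCaP against LNCaP (1.49, and 0.90 or 2.46 without LNCaP library 2 or 1) and SOX9 in VCaP against MDAPCa2a (1.52, and 0.95 without VCaP library 1).

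**Figure D3:**
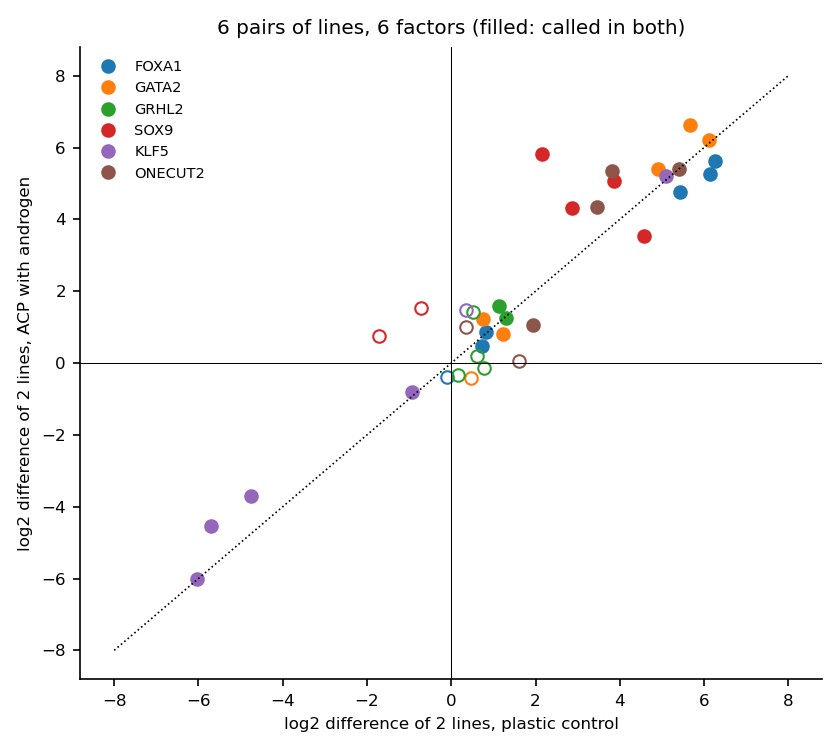
Log2 difference between 2 lines on ACP with androgen (vertical) against the same difference on plastic control (horizontal) for 6 pairs of lines and 6 factors; GATA3 is left out because its fitted differences rest on counts near 0. Filled points were called in both conditions and the dotted line marks equal values; all filled points lie in the same-sign quadrants, and 1 open SOX9 point moves from -1.71 to 0.76.

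Other genes of the same families and pathways followed from lists of related genes. Of 16 family relatives, 12 could be tested between lines, and on plastic control 2 were higher and 6 lower in LNCaP than in RWPE (median log2 difference -0.99, against 0.01 over all genes). The counts were 3 higher and 6 lower in MDAPCa2a (median -1.35) and 3 and 6 in VCaP (median -0.81). Of all genes, 57.4% were called in LNCaP against RWPE, 56.7% in MDAPCa2a and 62.4% in VCaP. GRHL3 and GRHL1, the other grainyhead factors, were at 21.0 and 32.7 CPM in RWPE and at 0.645 to 2.64 and 12.6 to 17.8 in the cancer lines, lower in each of the 3. KLF4 and KLF6, relatives of KLF5, were at 161 and 101 CPM in RWPE and at 12.9 to 45.7 and 7.67 to 22.9 elsewhere, and FOXA2 was at 7.77 CPM in RWPE and at most 0.317 elsewhere. SOX4 was higher than RWPE in each cancer line, at 75.9 to 249 CPM against 36.3. The relatives of ONECUT2, ONECUT1 and ONECUT3, were at or below 0.0645 CPM on plastic control and were not tested.

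Of 17 other prostate and epithelial factors on plastic control, 8 were higher and 4 lower in LNCaP than in RWPE, 9 and 1 in MDAPCa2a and 11 and 4 in VCaP. The background in these comparisons, here and for the junction and neuroendocrine genes below, was 57.4%, 56.7% and 62.4% of all genes. The largest of these were HOXB13, the homeobox factor of prostate, at 6.63 CPM in RWPE and 740 to 963 in the cancer lines, and SPDEF, an Ets factor of secretory epithelium, at 1.33 CPM in RWPE and 158 to 391 elsewhere. Of 12 junction and surface genes linked to grainyhead factors, 6 were higher and 2 lower in LNCaP than in RWPE, 7 and 0 in MDAPCa2a and 5 and 6 in VCaP. The E-cadherin gene CDH1 was at 851 CPM in LNCaP, 680 in MDAPCa2a, 522 in RWPE and 331 in VCaP. The mean of GRHL2 was highest in VCaP on plastic control, at 259 ± 87.0 CPM against 231 ± 8.62 in MDAPCa2a, and was not called between them. On ACP with androgen GRHL2 was at 176 CPM in VCaP, 196 in LNCaP and 224 in MDAPCa2a. Of 10 neuroendocrine genes tested, 10 were higher in VCaP than in RWPE on plastic control (median log2 difference 5.89, against 0.04 over all genes), with CHGA at 103 CPM in VCaP and at most 0.394 elsewhere. Neuroendocrine counts for LNCaP and MDAPCa2a are not reported here, so this count is not shown to be particular to VCaP. VCaP was also the line with most ONECUT2, and a link of ONECUT2 with the neuroendocrine genes was not tested.

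Antisense genes could share reads with 3 of the factors, because the use of strand in counting is not given in the sources used here. GATA2-AS1 was at 52.4 CPM in LNCaP, 17.1 in VCaP, 5.65 in MDAPCa2a and 4.46 in RWPE on plastic control, an order different from that of GATA2. GATA3-AS1 and SOX9-AS1 were at or below 0.142 CPM there.

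Within a line, few of the factors were called for surface, serum or androgen. Of 92 member tests in 15 comparisons, fitted within each line, 5 were called, 5.43%, against 5.70% of all genes over the same comparisons. GATA3 could be tested only in RWPE, since it was filtered for low counts in the fits of the other lines. Whether library values overlapped is given below as a description. The share of all genes without overlap was not counted, and groups of so few libraries can separate without a real difference.

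Between ACP in control medium and plastic control, edgeR called none of the 7 in RWPE (background 4.16%), with 1 at an unadjusted p below 0.05 and 1 called by DESeq2. That gene was SOX9, at 9.92 and 18.4 CPM on plastic and 6.16 and 7.11 on ACP, without overlap (log2 difference -1.07 ± 0.30, adjusted p = 0.0723). In LNCaP the same comparison called 1 of 6 (background 12.6%, 6.74% higher and 5.85% lower). FOXA1 was at 673 and 600 CPM on plastic control and fell to 367 and 443 on ACP, 1.46-fold lower (log2 difference -0.55 ± 0.13, adjusted p = 0.0259). GATA2 went from 308 and 303 CPM to 183 and 183, also without overlap, and its adjusted p of 0.0524 missed the threshold. The FOXA1 call was lost without plastic library 1 (-0.47, adjusted p = 0.233), plastic library 2 (-0.62, adjusted p = 0.132) or ACP library 1 (-0.46, adjusted p = 0.140), and in the fit of all lines (-0.65, adjusted p = 0.0671). In VCaP none of 6 was called on ACP in control medium (background 0.0448%), with 0 at an unadjusted p below 0.05 and 0 called by DESeq2. FOXA1 there was at 1188 and 912 CPM on plastic and 660 and 810 on ACP, without overlap (log2 difference -0.47 ± 0.25, adjusted p = 0.691).

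With stripped serum on both surfaces, ACP against plastic gave no call by edgeR in LNCaP (background 6.12%), with 3 of 6 at an unadjusted p below 0.05 and 1 called by DESeq2. GATA2 was at 431 and 340 CPM on plastic and 265 and 221 on ACP (adjusted p = 0.0735). SOX9 was at 7.70 and 6.37 CPM against 3.01 and 3.71, and ONECUT2 at 8.70 and 9.94 against 5.47 and 6.34, both without overlap. No factor was called in VCaP (background 0%; 0 unadjusted, 0 by DESeq2; 1 library on plastic) or in MDAPCa2a (background 0.00734%; 1 unadjusted, 0 by DESeq2). The unadjusted one was SOX9 in MDAPCa2a, at 94.8 and 91.8 CPM on plastic and 60.8 and 70.0 on ACP. Relatives showed 1 call in LNCaP, KLF4, with a log2 difference of 2.23 ± 0.43 (adjusted p = 0.0155), and 0 in the other lines.

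Between stripped serum and control medium, edgeR called none of the 6 factors tested in any line or on either surface. On plastic the background was 9.45% in LNCaP, 0.89% in VCaP and 1.58% in MDAPCa2a, and on ACP it was 5.37% in LNCaP and 0.82% in VCaP. At an unadjusted p below 0.05 there were 2 factors in LNCaP on plastic and 2 in LNCaP on ACP, and 0 in the other comparisons, and DESeq2 called 0 in each of the 5. KLF5 was at 5.41 and 6.80 CPM in LNCaP on plastic control and 2.36 and 2.91 with stripped serum (log2 difference -1.17 ± 0.42, adjusted p = 0.109). On ACP it was at 4.11 and 3.43 CPM with control medium and 1.94 and 1.89 with stripped serum (adjusted p = 0.210). The groups did not overlap on either surface, and these levels rest on 54 to 308 reads. Some factors of the other lists were called in LNCaP on plastic. SPDEF fell by 0.69 on the log2 scale, EHF and ZBTB16 also fell, and SOX4, a relative of SOX9, rose by 0.96. Of 9 androgen-regulated genes 6 fell and 1 rose there, with KLK3 changing most (log2 difference -4.41 ± 0.20). The interaction of surface with serum in LNCaP called none of the 6 factors (background 0.307%), with 2 at an unadjusted p below 0.05 and 0 by DESeq2.

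**Figure D4:**
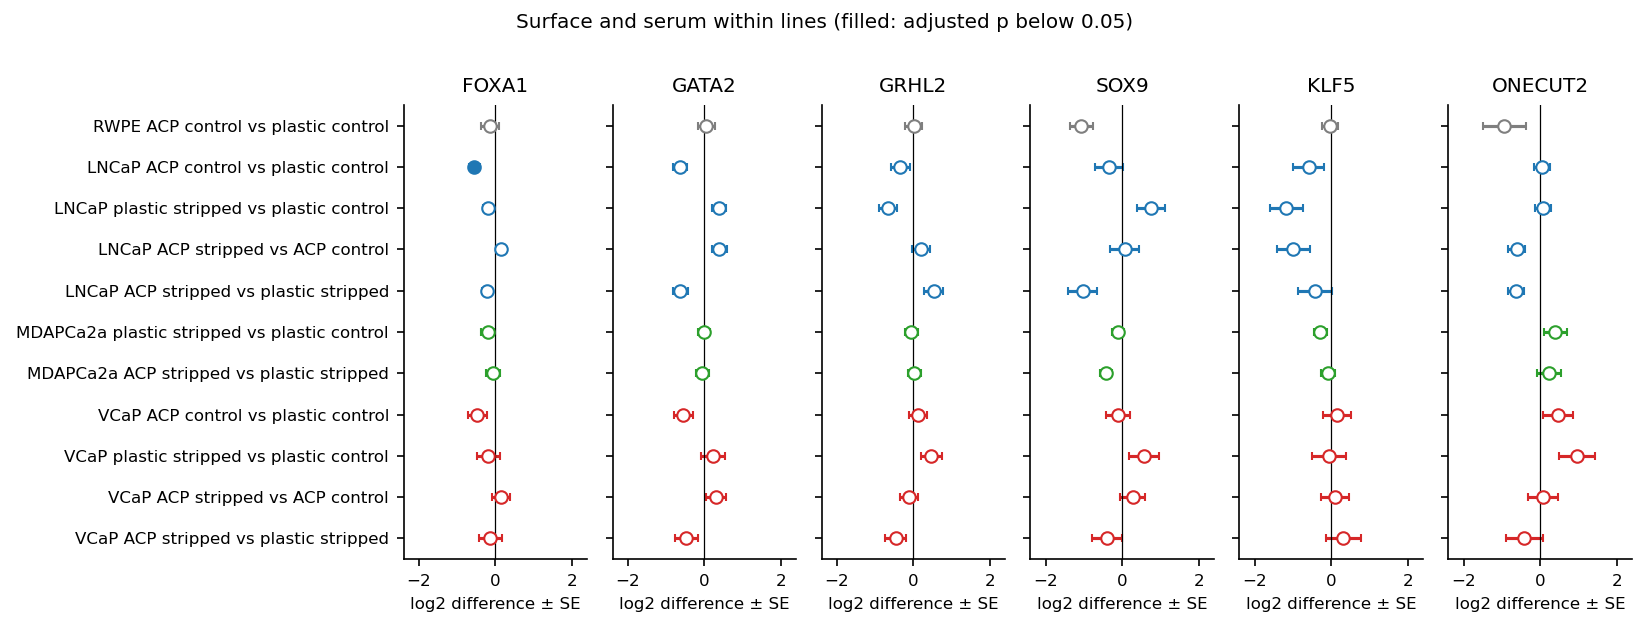
Log2 difference with its SE (points and bars) for 6 factors in 11 within-line comparisons of surface and serum; filled points have an adjusted p below 0.05. The only filled point is FOXA1 in LNCaP, ACP against plastic in control medium, at -0.55.

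In RWPE, cells with androgen on ACP were compared with cells in control medium on ACP, and 2 of 7 factors fell and none rose (background 19.1%, 11% higher and 8.05% lower). GATA2 was at 11.1 and 9.69 CPM in control medium and at 5.82, 5.23 and 4.47 with androgen, 1.98-fold lower (log2 difference -0.99 ± 0.21, adjusted p = 0.0183). SOX9 was at 6.16 and 7.11 CPM and at 2.44, 3.11 and 2.98 with androgen, 2.29-fold lower (-1.20 ± 0.29, adjusted p = 0.0234). The groups did not overlap for either, and all 5 libraries held 39 to 325 reads of these genes. GATA3, GRHL2 and KLF5 also had no overlap but were not called. Their log2 differences were -0.60 ± 0.20, -0.47 ± 0.20 and -0.46 ± 0.19, with adjusted p of 0.0611, 0.119 and 0.114. FOXA1 had 13.5 and 12.7 CPM against 18.8, 13.2 and 20.1, which overlapped. Both calls were lost without control library 1 (adjusted p = 0.275) or control library 2 (adjusted p = 0.0913 for GATA2 and 0.127 for SOX9), and the SOX9 call also without androgen library 1 (adjusted p = 0.0624). Without androgen library 3 the number called was 5, adding GATA3, GRHL2 and KLF5.

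Related genes in RWPE were called only downward in that comparison (background 19.1% of all genes, 11% higher and 8.05% lower). Of 8 relatives tested 3 fell (KLF4 by 1.43, GRHL3 by 0.95 and GATA6 by 0.89 on the log2 scale), and of 16 other factors 3 fell, among them OVOL1 by 0.95 and ELF3 by 0.89. Of the 12 junction and surface genes linked to grainyhead factors 6 fell, with CGN, the tight-junction gene for cingulin, the largest at 1.32, and ST14, a membrane protease, next at 0.92 (median of the 12 -0.48, against -0.02 over all genes). CDH1 was at 413 and 385 CPM in control medium and 204, 256 and 309 with androgen. Marker sums moved downward alongside, and not for basal markers alone. The summed level of 4 basal markers was 12742 to 15937 CPM in control medium and 3398 to 11102 with androgen, and all 4 were detected in each group. Luminal markers summed to 1436 to 1732 CPM in control medium and 976 to 1442 with androgen. Mesenchymal markers summed to 230 to 233 and 169 to 203, and fibroblast markers to 26.7 to 31.6 and 14.9 to 21.0. The part of these marker changes in the GATA2 and SOX9 values was not tested, and fewer cells of a type and less RNA per cell cannot be told apart in bulk samples. Androgen-regulated genes gave 0 rises and 1 fall (NDRG1) of 9, and KLK3 was at 8.51 and 5.94 CPM in control medium and at 16.8, 8.46 and 7.17 with androgen.

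In the 3 cancer lines, androgen on ACP was compared with stripped serum alone on ACP. LNCaP called 1 of 6 factors (background 7.73%, 3.77% higher and 3.96% lower). ONECUT2 was at 5.47 and 6.34 CPM with stripped serum and rose to 12.5 and 10.3 with androgen, 1.92-fold higher without overlap (log2 difference 0.94 ± 0.21, adjusted p = 0.0240). KLF5 was at 1.94 and 1.89 CPM and at 6.36 and 2.15 with androgen (1.14 ± 0.43, adjusted p = 0.134), and GRHL2 at 129 and 128 CPM and at 258 and 134 (0.60 ± 0.24, adjusted p = 0.157). For both, androgen library 1 was the high one, and without library 2 both were called (1.73 and 1.00). The ONECUT2 call was lost without stripped library 1 (0.83, adjusted p = 0.174), stripped library 2 (1.07, adjusted p = 0.0974) or androgen library 1 (0.77, adjusted p = 0.144), and in the fit of all lines (0.95, adjusted p = 0.151). FOXA1 and GATA2 had log2 differences of 0.06 ± 0.13 and -0.16 ± 0.19.

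VCaP also called 1 of 6 (background 17.5%, 8.67% higher and 8.8% lower), and it was SOX9. Its level was 54.5 and 79.5 CPM with stripped serum and rose to 215 and 109 with androgen, 2.42-fold higher without overlap (log2 difference 1.28 ± 0.33, adjusted p = 0.0260). Androgen library 1 was the higher for SOX9 and also for KLK3, at 3446 CPM against 840 in library 2. Without that library the SOX9 difference was 0.73 (adjusted p = 0.157), and without stripped library 1 it was 1.07 (adjusted p = 0.146). Markers of other cell types moved in the same comparison: 4 basal markers summed to 7.25 to 13.7 CPM with stripped serum and 23.4 to 28.8 with androgen (2 called higher), 6 fibroblast markers to 40.7 to 161 and 7.66 to 8.63 (2 called lower, 1 at 0 with stripped serum), and 5 liver markers to 268 to 322 and 15.9 to 65.4 (1 called lower). Their part in the SOX9 value was not tested. ONECUT2 was at 68.3 and 30.7 CPM with stripped serum and at 22.6 and 25.1 with androgen, and its log2 difference of -1.05 ± 0.40 missed the threshold in edgeR (adjusted p = 0.0976) and passed in DESeq2 (adjusted p = 0.0425). GATA2 was at 505 and 637 CPM against 453 and 316, and GRHL2 at 256 and 240 against 185 and 168, neither called (adjusted p = 0.144 and 0.171).

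MDAPCa2a called 0 of 6 (background 0%), with 0 at an unadjusted p below 0.05 and 0 by DESeq2. SOX9 there was at 60.8 and 70.0 CPM with stripped serum and 48.3 and 64.7 with androgen (log2 difference -0.25 ± 0.16), and ONECUT2 at 11.1 and 22.5 against 21.7 and 24.0 (0.41 ± 0.31), both overlapping. No androgen-regulated gene was called in this line either, while 6 of 9 rose in LNCaP and 6 of 9 in VCaP, among them TMPRSS2 (log2 difference 2.27 ± 0.24 and 2.91 ± 0.37) and FKBP5 (1.94 ± 0.24 and 3.31 ± 0.35).

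**Figure D5:**
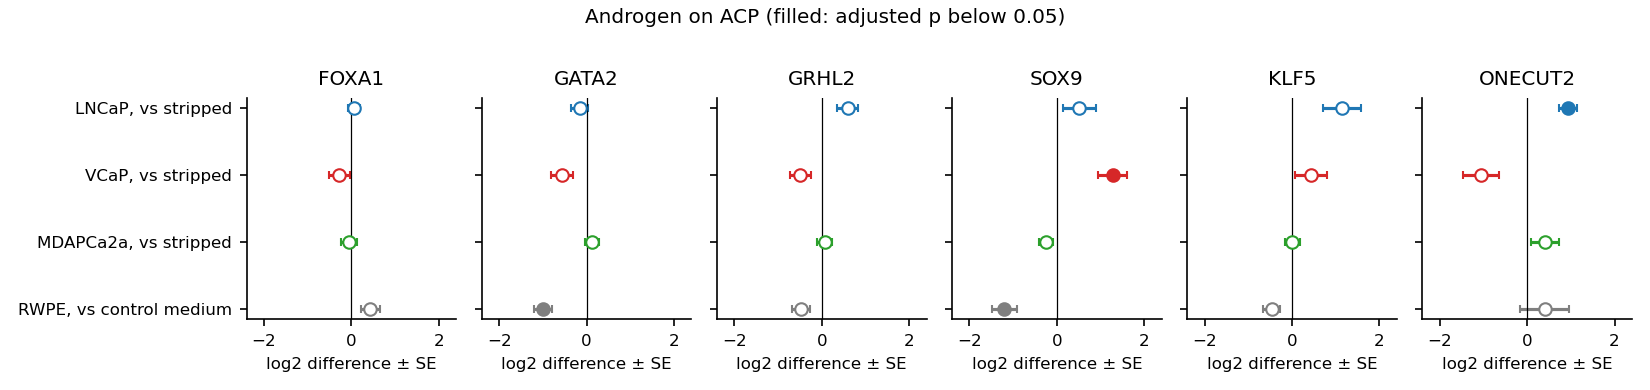
Log2 difference with its SE for 6 factors with androgen on ACP, against stripped serum in LNCaP, VCaP and MDAPCa2a and against control medium in RWPE; filled points have an adjusted p below 0.05. ONECUT2 is filled at 0.94 in LNCaP, SOX9 at 1.28 in VCaP and at -1.20 in RWPE, and GATA2 at -0.99 in RWPE.

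The androgen effect was also tested for a difference between VCaP and LNCaP in the fit of all lines. Of 7 factors 2 were called, both lower in VCaP, where 10.9% of all genes were called (5.39% higher, 5.51% lower). ONECUT2 went up in both LNCaP androgen libraries and lay below both stripped libraries in both VCaP androgen libraries, and the difference of the effects was -2.01 ± 0.51 on the log2 scale (adjusted p = 0.0123). For GRHL2 the difference was -1.10 ± 0.35 (adjusted p = 0.0431). It was -0.55 without LNCaP androgen library 1 (adjusted p = 0.350), and of the 8 libraries left out in turn it stayed called only without LNCaP androgen library 2. The ONECUT2 difference was not called without LNCaP stripped library 1 (-1.90, adjusted p = 0.0597) or VCaP stripped library 1 (-1.33, adjusted p = 0.119). For SOX9, called in VCaP and not in LNCaP, the difference of the effects was 0.75 ± 0.49 and was not called (adjusted p = 0.369).

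Related factors called with androgen included SPDEF in LNCaP and VCaP (log2 difference 0.57 ± 0.13 and 1.10 ± 0.27) and ZBTB16 in both (1.20 ± 0.31 and 1.21 ± 0.37). Of 10 neuroendocrine genes tested in VCaP, 4 fell and none rose, CHGA the most with a log2 difference of -3.11 ± 0.68 (adjusted p = 0.0146), followed by NCAM1 at -2.79 ± 0.56. The median over the 10 was -1.30, against -0.03 over all genes, of which 8.8% were called lower. Among relatives of the factors GATA5 fell in VCaP by 1.63 on the log2 scale, and 0 of 7 relatives tested in LNCaP were called.

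Genes with the most similar profile were ranked by Pearson's r over the 17 group means of log2 CPM, among 13218 genes with at least 5 CPM in a group. Genes on the Y chromosome were left out. The 17 points belong to 4 lines, so r mostly compares lines and is given as a description. FOXA1 was closest to SPON2 (0.996), TBX1 (0.992) and PRKAR2B (0.991), and GATA2 to MAML3, MAPT (both 0.990) and SGSH (0.988). GATA3 was closest to DMD, AXL (both 0.975) and CAV1 (0.968), and KLF5 to SLC16A3 (0.992), C2orf74 (0.985) and UCA1 (0.983). SOX9 was closest to KLHDC7A (0.968), NEFH (0.964) and ZNF697 (0.959), and ONECUT2 to CAPN7 (0.985), ENOX1 (0.980) and IQSEC1 (0.978). GRHL2 had the lowest best match, DAAM1 at 0.949, and DIP2A was also among its closest 3 (0.941).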

How the data were processed

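The values are read counts per gene symbol as deposited by the authors, whole numbers that were not normalized. Per the submitters' processing notes, STAR, HTSeq and build hg19 were used. The sources used here name no versions, annotation or strand setting. After filterByExpr at 10 counts and TMM scaling, the counts entered the quasi-likelihood F test of edgeR 4.0.16 in R 4.3.3. Calls needed a Benjamini-Hochberg adjusted p below 0.05 over all genes tested. Comparisons within a line used that line's libraries, and those between lines used all 34. SE is the log2 difference divided by the square root of F. Exon lengths for CPM per kb came from GENCODE on GRCh38, another build than that of the counts. Date-like values in 12 genes of RWPE on plastic control touched no factor. Tests were checked on simulated data. DESeq2 1.42.0 and other settings were alternatives. The 7 factors and the gene lists were chosen with earlier results of these data known. All 7 are described in every comparison. From the other lists, a few markers and the largest rise or fall may be named, and further genes named were chosen after their values were seen. Depth of 15.4 M to 44.8 M reads limits precision mainly for GATA3 outside RWPE, ONECUT2 in RWPE, KLF5 in LNCaP, and SOX9 in RWPE and LNCaP. A few genes of the lists and rankings are not reported here.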

Additional observations from a re-analysis of the deposited data

Results flagged for a closer look

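The androgen effect on ACP differed between VCaP and LNCaP for 2 factors, by edgeR's test of the difference itself. For ONECUT2 the effect in VCaP minus that in LNCaP was -2.01 on the log2 scale. Its level in LNCaP was 11.4 ± 1.58 CPM with androgen and 5.90 ± 0.618 with stripped serum (SD, n = 2), and in VCaP 23.9 ± 1.80 and 49.5 ± 26.6. For GRHL2 the difference was -1.10 on the log2 scale, from 196 ± 87.1 and 129 ± 0.769 CPM in LNCaP and 176 ± 11.4 and 248 ± 11.2 in VCaP. Both calls were lost without at least 1 of the 8 libraries involved, and no cause was tested.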

How the results depend on the processing

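Over all alternatives, 71 called results of the 7 factors gave 661 repeats, of which 604 stayed called in the same direction, 57 were no longer called and 0 reversed. Of 1130 repeats of uncalled results, 44 became called. Counts of called factors that changed by more than 1.5 times were these. Without a count filter the count was 2 in place of 1 for LNCaP on ACP against plastic control, 3 in place of 0 for LNCaP plastic with stripped serum, 1 in place of 0 for LNCaP ACP with stripped serum, 2 in place of 0 for LNCaP ACP against plastic with stripped serum, 3 in place of 1 for LNCaP androgen, 1 in place of 0 for RWPE on ACP, and 2 in place of 1 for VCaP androgen. DESeq2 gave 2 for LNCaP on ACP, 1 for LNCaP ACP against plastic with stripped serum, 1 for RWPE on ACP and 2 for VCaP androgen. The fit of all lines gave 0 for LNCaP on ACP, 2 for LNCaP plastic with stripped serum, 0 for LNCaP androgen and 2 for VCaP androgen. Both this fit and the one without a count filter also tested GATA3 in the cancer lines. For LNCaP plastic with stripped serum GATA3 was among their calls, at 0 reads against 26 on plastic control. Without the plastic control libraries, an alternative added after seeing the data, the VCaP minus LNCaP androgen effect had 1 call in place of 2. Leaving out 1 library at a time gave 0 to 2 calls for that effect, 0 to 2 for LNCaP on ACP, 0 to 3 for LNCaP androgen, 0 to 5 for RWPE androgen and 0 to 2 for VCaP androgen. The replicate block gave 2 for LNCaP on ACP, 1 for LNCaP ACP against plastic with stripped serum, 1 for RWPE on ACP and 5 in place of 2 for RWPE androgen. In 23 pairs of groups the correlation of same-numbered deviations ran from -0.248 to 0.252, with 6 above 0.1. These values cannot settle whether libraries of the same number were handled together. DESeq2's size factors in place of TMM moved group levels by at most 7.13%, and 100 of 119 by less than 1 SD. Smaller changes were 3 calls by DESeq2 for RWPE androgen, and 30 to 33 for the line pairs on plastic control and 29 to 33 for those on ACP, in place of 32, over the settings that keep all compared libraries. The causes of these changes were not tested.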
